A study of Mus musculus with 12 samples.

Results

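Injured mouse lung, labelled ALI for acute lung injury, was compared with lung labelled Control. The series title ascribes the injury to hypoxia and LPS (lipopolysaccharide, the outer-membrane lipid of Gram-negative bacteria); the LPS dose and route, the oxygen level, the time of harvest and the age, sex and strain of the mice are not stated by the labels. Both groups are wildtype lung. The comparison used 6 of the 12 libraries of the series, 3 ALI and 3 Control, chosen by their labels; injured lung given mesenchymal stromal cells, or a preparation labelled tpMSC, was left out. Of 38349 genes listed, the 21585 with enough counts in these 6 libraries were tested. Levels are given as FPKM, fragments scaled by transcript length and sequencing depth, which allows comparison between genes. Differences are given as log2 fold changes of ALI over Control from edgeR's quasi-likelihood test on the counts, with the standard error (SE) after the ± sign, and a gene was called where its Benjamini-Hochberg adjusted p, over all genes tested, was under 0.05.

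In the alveolus, thin type 1 epithelial cells and capillary endothelium form the gas exchange surface, type 2 cells make surfactant, and resident alveolar macrophages clear debris. LPS is bound by LBP, CD14 and the TLR4-MD-2 receptor, whose adaptors activate NF-kB and interferon regulatory factors; these drive chemokines that bring neutrophils and then monocytes through an activated, leaky endothelium. Low oxygen is sensed by prolyl hydroxylases that otherwise mark the HIF transcription factors for degradation.

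Total counts per library ranged from 53083002 in ALI 2 to 67498258 in Control 2, and between 27027 and 27608 genes were detected. Along principal component 1, with 69% of the variance, ALI and Control libraries lay apart. The next held 10% and set ALI 2 (score 59.49) apart from ALI 1 (-20.73) and ALI 3 (-36.38). Correlations of log2 depth-scaled counts were 0.976 to 0.984 within groups and 0.925 to 0.934 between them, as a description across genes. Defining lung markers were high in every library: Sftpc (surfactant protein C, type 2 cells), Scgb1a1 (club cells) and Ager (type 1 cells) had at least 3412, 7170.4 and 554 FPKM. The labels do not say whether the replicates were separate animals, so the p-values reflect only the variation among these libraries, which may be technical. As this is bulk tissue, fewer cells of a type and less RNA per cell cannot be told apart.

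At the level of all genes, 9960 were called, 46.1% of those tested. Of these, 5187 (24%) were higher and 4773 (22.1%) lower in ALI, and the median log2 fold change over all genes tested was -0.01. Larger changes were mostly increases: 2092 genes (9.69%) were called and at least 2-fold higher against 1559 (7.22%) at least 2-fold lower, 954 (4.42%) against 414 (1.92%) at 4-fold, and 164 (0.76%) against 45 (0.208%) at 32-fold. The 3 libraries of each group did not overlap for 12528 genes (58%), with ALI higher in 6254 (29%) and lower in 6274 (29.1%). The near-even split depended on the scaling: upper-quartile scaling moved the median of all genes to -0.10 and gave 4356 higher and 5977 lower, and limma on log2(FPKM + 0.1) gave 4509 higher and 5720 lower. Of 15760 protein-coding genes 53.3% were called, and of 3074 long non-coding RNAs 29.8%. Of the 34 mitochondrially encoded genes, 13 were called and all 13 were lower.

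**Figure D1:**
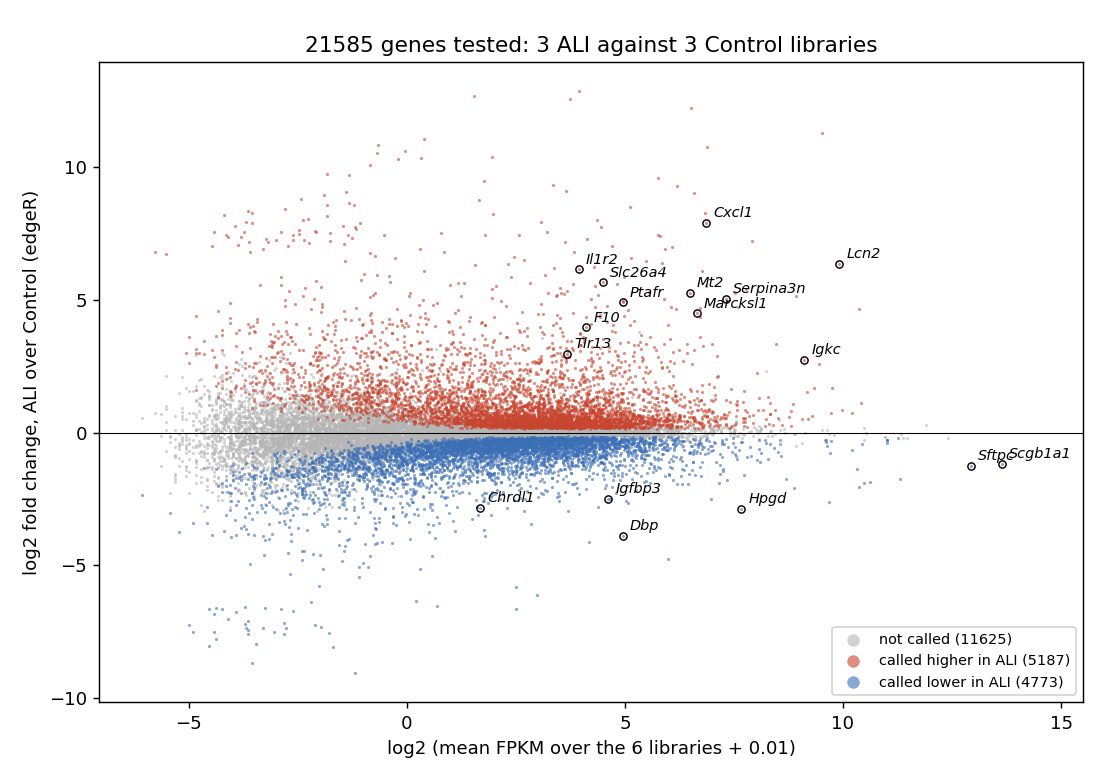
Log2 fold change of ALI over Control (vertical axis) against mean FPKM over the 6 libraries on a log2 axis, with 1 point for each of the 21585 genes tested; red points were called higher (5187), blue lower (4773) and grey not called. The highest points at moderate to high FPKM include Cxcl1 and Lcn2, and Scgb1a1 and Sftpc lie at the right edge below 0.

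The most abundant transcripts changed places. The 10 most abundant genes took 17.3 to 19% of summed FPKM-based expression in Control and 10.6 to 12.5% in ALI. The largest losses of share were Scgb1a1, the main club cell secretory protein (5.74% to 2.48%), and Sftpc (3.55% to 1.44%); on log2(FPKM + 1) limma lost both calls, of which Scgb1a1 was also lost with 0.1 added. The largest gains were S100a9, a calcium-binding protein of neutrophils (0.034% to 0.829%), and Lcn2, which withholds iron from bacteria by binding their siderophores (0.0078% to 0.618%). Fth1, the ferritin heavy chain, went from 0.137% to 0.424%, and B2m, the light chain of MHC class I, from 0.285% to 0.601%.

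The increases with the smallest p-values included a chemokine, a protease inhibitor and receptors of innate immune cells. Cxcl1 (ENSMUSG00000029380, chr5:90891241-90893115 on the + strand), a ligand of the neutrophil receptor CXCR2, was 0.96, 1.04 and 1.04 FPKM in Control and 231, 228 and 232 FPKM in ALI. The ALI libraries agreed to within a few units and lay far above all Control libraries (log2 fold change 7.89 ± 0.074, edgeR adjusted p = 6.65e-10). Serpina3n (ENSMUSG00000021091, chr12:104406729-104414329 on the + strand), an inhibitor of neutrophil and mast cell serine proteases, was 10.2, 9.99 and 9.26 FPKM in Control and 292, 314 and 318 FPKM in ALI, again with no overlap (log2 fold change 5.04 ± 0.079, edgeR adjusted p = 1.12e-08). Serpina3n has near-identical neighbours and the treatment of multi-mapped reads is not given, so its split from them is uncertain. Ptafr (ENSMUSG00000056529, chr4:132564067-132582683 on the + strand), the receptor for platelet-activating factor, was 2.18, 2.23 and 1.85 FPKM in Control and 58.0, 61.2 and 59.5 FPKM in ALI (log2 fold change 4.90 ± 0.092, edgeR adjusted p = 2.55e-08). Tlr13, an endosomal receptor for bacterial ribosomal RNA, was 2.96, 3.04 and 3.1 FPKM in Control and 22.0, 22.8 and 22.6 FPKM in ALI (log2 fold change 2.96 ± 0.058, edgeR adjusted p = 3.04e-08). Cfb, complement factor B of the alternative pathway, had a log2 fold change of 4.71 ± 0.087, and F10, coagulation factor X, one of 3.97 ± 0.079. Marcksl1, an actin regulator (4.48 ± 0.080), and Mab21l3 (7.42 ± 0.15) completed this group of 12 beside Il1r2, Lcn2, Mt2 and Saa3; lack of overlap between the groups was part of how they were chosen.

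The decreases with the smallest p-values were growth factor, matrix and vascular genes. Bmp6 (ENSMUSG00000039004, chr13:38345107-38500302 on the + strand), an endothelial bone morphogenetic protein that also instructs iron regulation, was 47.1, 47.1 and 46.1 FPKM in Control and 9.41, 8.82 and 9.04 FPKM in ALI. Its ALI level was about the same in all 3 libraries and below every Control library (log2 fold change -2.29 ± 0.054, edgeR adjusted p = 5.26e-08). Igfbp3 (ENSMUSG00000020427, chr11:7206086-7213923 on the - strand), a carrier of insulin-like growth factors, was 39.2, 43.4 and 42.7 FPKM in Control and 6.83, 7.18 and 7.33 FPKM in ALI (log2 fold change -2.48 ± 0.065, edgeR adjusted p = 7.04e-08). Chrdl1, a secreted BMP antagonist, was 5.92, 5.8 and 5.29 FPKM in Control and 0.7, 0.82 and 0.74 FPKM in ALI (log2 fold change -2.83 ± 0.097, edgeR adjusted p = 2.48e-07). The matrix genes Tnxb (tenascin X, -2.28 ± 0.079) and Ltbp4, which helps assemble elastic fibres (-2.16 ± 0.077), fell with them. So did Lepr, the leptin receptor (-2.14 ± 0.083), Myzap (-2.11 ± 0.075), the intermediate filament gene Synm (-2.10 ± 0.082) and the collagen glycosyltransferase homologue Colgalt2 (-2.17 ± 0.097). Dbp, a clock-controlled transcription factor, had 58.6, 56.6 and 59.0 FPKM in Control and 3.39, 4.67 and 3.17 FPKM in ALI (log2 fold change -3.88 ± 0.15, edgeR adjusted p = 4.32e-07).

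**Figure D2:**
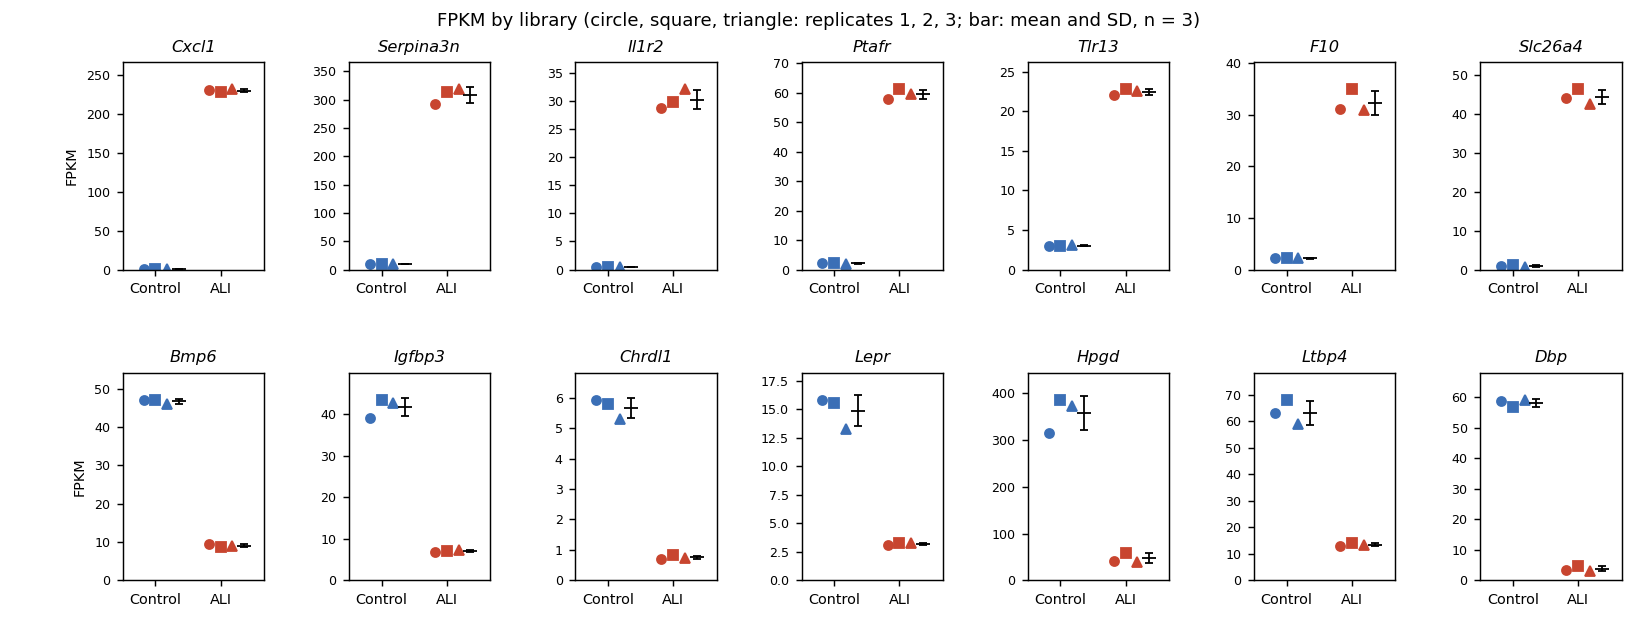
FPKM in each library (circle, square and triangle for replicates 1, 2 and 3) for 14 genes, with the mean and SD of 3 libraries as bars and each panel on its own linear axis from 0. In each panel the ALI and Control libraries do not overlap; Cxcl1, Serpina3n, Il1r2, Ptafr, Tlr13, F10 and Slc26a4 are higher in ALI and the other 7 lower.

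Promoter windows of 5 genes that rose are printed because they hold matches to the NF-kB or interferon motifs counted over all promoters. They are RefSeq windows on GRCm38.p6 from 250 bases before to 50 bases after the start site, 5′ to 3′ on the gene's strand. Capitals mark GGGNNNTTCC (NF-kB, on either strand) in the first 3 and GAAANNGAAA (interferon response element, on either strand) in the last 2; other motifs are not capitalised.
Cxcl1, chr5:90890995-90891294, + strand: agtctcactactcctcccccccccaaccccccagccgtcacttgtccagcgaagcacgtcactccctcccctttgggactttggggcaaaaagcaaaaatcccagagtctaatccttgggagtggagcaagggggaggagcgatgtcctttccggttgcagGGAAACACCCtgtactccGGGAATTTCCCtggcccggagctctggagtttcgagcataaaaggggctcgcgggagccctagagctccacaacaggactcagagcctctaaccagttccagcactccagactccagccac
Cxcl2, chr5:90903649-90903948, + strand: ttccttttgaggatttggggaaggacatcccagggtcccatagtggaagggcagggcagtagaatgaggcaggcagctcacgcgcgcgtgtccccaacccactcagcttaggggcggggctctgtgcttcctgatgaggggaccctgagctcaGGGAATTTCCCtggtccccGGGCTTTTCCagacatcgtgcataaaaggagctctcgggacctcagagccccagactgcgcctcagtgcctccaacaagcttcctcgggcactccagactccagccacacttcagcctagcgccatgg
Tnfaip3, chr10:19015361-19015660, - strand: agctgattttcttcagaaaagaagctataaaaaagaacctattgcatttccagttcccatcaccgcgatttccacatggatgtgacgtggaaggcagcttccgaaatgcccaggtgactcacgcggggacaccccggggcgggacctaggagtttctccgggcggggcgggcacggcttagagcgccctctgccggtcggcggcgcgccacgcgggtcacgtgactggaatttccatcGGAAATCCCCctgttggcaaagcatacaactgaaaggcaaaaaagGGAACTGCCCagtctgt
Saa3, chr7:46715627-46715926, - strand: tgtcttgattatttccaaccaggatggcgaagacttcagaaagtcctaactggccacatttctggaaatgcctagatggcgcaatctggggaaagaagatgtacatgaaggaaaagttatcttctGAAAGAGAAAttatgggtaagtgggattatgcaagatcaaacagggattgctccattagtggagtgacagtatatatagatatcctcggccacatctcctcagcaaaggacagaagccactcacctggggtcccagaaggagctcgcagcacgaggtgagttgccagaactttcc
Ifit1, chr19:34640639-34640938, + strand: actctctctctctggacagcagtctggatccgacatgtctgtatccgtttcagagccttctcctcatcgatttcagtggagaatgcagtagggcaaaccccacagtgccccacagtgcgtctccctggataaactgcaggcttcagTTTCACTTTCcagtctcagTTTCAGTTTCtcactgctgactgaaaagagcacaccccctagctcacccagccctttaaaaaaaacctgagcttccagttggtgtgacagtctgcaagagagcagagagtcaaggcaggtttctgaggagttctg
The Cxcl1 window held NF-kB matches starting at -89, -71 and -70 from the start site, the last 2 overlapping on opposite strands. Cxcl2 held them at -97 and -96, also overlapping, and at -78. The printed Tnfaip3 window held them at -12 and 33, and the window of its other start site, not printed, held 1 at -90. The window of Tek, the angiopoietin receptor, held none of the motifs searched. The Saa3 window held 1 interferon motif at -125, and Ifit1 held 2, at -104 and -85. Such matches are descriptions of letters and do not show binding.

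Over all windows of genes called at least 4-fold higher, 11.2% of 624 held the NF-kB letters (95% Wilson interval 8.98 to 13.9%), against 6.15% of 17084 windows of all genes tested and 5.56% of all 32851 promoters. Windows of genes called at least 4-fold lower held them in 3.72% of 296 (2.09 to 6.53%). The interferon letters were in 6.89%, 3.23%, 3.44% and 1.69% of those windows in the same order. The AP-1 letters TGANTCA were in 13.5% of windows of the genes that rose, 6.42% of those that fell, 6.01% of all tested and 7.81% of all promoters. The C/EBP letters TTGCNNAA were in 17.8%, 11.8%, 9.53% and 10.8% in the same order. The core HIF letters ACGTG were in 21% of windows of the genes that rose (18 to 24.4%), 18.6% of those that fell, 23.5% of all tested and 19.6% of all promoters. The TATA box letters TATAAA were in 18.4% of windows of the genes that rose, 14.5% of those that fell, 8.55% of all tested and 13.6% of all promoters. Not every gene had a window. Windows were found for 520 of the 954 genes called at least 4-fold higher and 255 of the 414 called at least 4-fold lower. Over all genes tested they were found for 13458 of 21585. Windows of 1 gene overlap, and no test was made.

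LPS receptor genes and their adaptors were mostly higher. Of 28 LPS and microbial sensing genes tested, 23 were called higher and 1 lower, with a median log2 fold change of 0.97. Tlr2, which senses bacterial lipoproteins, was 7.82, 8.54 and 6.59 FPKM in Control and 68.8, 73.2 and 72.0 FPKM in ALI (log2 fold change 3.29 ± 0.10, edgeR adjusted p = 1.63e-07). Tlr4 itself had 5.74 ± 0.422 FPKM in Control and 10.5 ± 0.682 FPKM in ALI (SD, n = 3), a log2 fold change of 0.94 ± 0.081, and its partner Ly96 (MD-2) one of 1.23 ± 0.29. The shared adaptor Myd88 (2.08 ± 0.074), the muramyl dipeptide sensor Nod2 (2.78 ± 0.13) and the decoy kinase Irak3 (2.92 ± 0.11), which restrains this pathway, rose too. Tlr5, the flagellin receptor, was the member called lower (-1.01 ± 0.11). Of 9 NF-kB subunits and kinases, 7 were called higher and none lower, led by Nfkb2 (2.32 ± 0.078) and Relb (2.17 ± 0.084), while Rela had 0.32 ± 0.066.

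Feedback brakes on NF-kB and MAPK signalling rose as well: 18 of 20 were called higher and none lower, with a median of 2.05. Tnfaip3 (A20), which edits ubiquitin chains on signalling proteins, was 3.71, 4.09 and 3.61 FPKM in Control and 36.2, 44.0 and 45.0 FPKM in ALI (log2 fold change 3.53 ± 0.10, edgeR adjusted p = 1.32e-07). Socs3, which limits IL-6 family signalling, was 9.85, 11.7 and 11.1 FPKM in Control and 113, 127 and 118 FPKM in ALI (log2 fold change 3.52 ± 0.087, edgeR adjusted p = 5.91e-08). Both were without overlap between groups. Nfkbia, the inhibitor IkB-alpha, rose from a mean of 53.8 to 221 FPKM (2.11 ± 0.080), and the RNA-degrading Zc3h12a (2.80 ± 0.086) and Zfp36 (1.64 ± 0.14) rose too. Dusp1, a phosphatase of stress kinases, did not pass the test (0.085 ± 0.14, adjusted p = 0.656 by edgeR).

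Cytokines of the IL-1, TNF and IL-6 families were raised along with decoys and antagonists. In the IL-1 family, 6 of 7 ligands were called higher and 1 lower, and of 9 receptors 7 were higher and 2 lower. Il36g, a ligand made by epithelium and macrophages, was 2.44, 0.93 and 0.89 FPKM in Control and 99.8, 135 and 105 FPKM in ALI (log2 fold change 6.39 ± 0.38, edgeR adjusted p = 4.59e-06; without Control 1 the value was 7.02). Il1rn, the receptor antagonist, was 2.06, 1.71 and 2.26 FPKM in Control and 48.7, 73.1 and 57.2 FPKM in ALI (log2 fold change 4.96 ± 0.18, edgeR adjusted p = 3.67e-07). Il33, an alarmin of type 2 cells, rose by 2.31 ± 0.11. Il18 went the other way, at 21.0, 17.7 and 16.5 FPKM in Control and 3.22, 3.69 and 2.87 FPKM in ALI, with every ALI library below every Control library (log2 fold change -2.42 ± 0.15, edgeR adjusted p = 5e-06), while its binding protein Il18bp rose (2.30 ± 0.19). Among receptors, the decoy Il1r2 was 0.42, 0.49 and 0.42 FPKM in Control and 28.6, 29.9 and 32.0 FPKM in ALI (log2 fold change 6.14 ± 0.099, edgeR adjusted p = 1.15e-08).

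Of 20 TNF superfamily genes, 15 were called higher and 2 lower. Tnf was 0.63, 0.84 and 0.59 FPKM in Control and 97.1, 116 and 122 FPKM in ALI (log2 fold change 7.41 ± 0.16, edgeR adjusted p = 3.58e-08), and Tnfrsf9 (4-1BB), a costimulatory receptor, was 0.1, 0.35 and 0.39 FPKM in Control and 21.7, 21.1 and 18.3 FPKM in ALI (log2 fold change 6.20 ± 0.33, edgeR adjusted p = 2.66e-06). Tnfsf10 (TRAIL) fell (-1.01 ± 0.17). The IL-6 family had 11 higher and 3 lower of 16: Osm (3.53 ± 0.18), Lif (2.53 ± 0.23) and Il11 (2.81 ± 0.36) and the receptor chain Osmr (1.99 ± 0.080) rose, while Lifr, the LIF receptor, fell from 17.0 to 6.07 FPKM (-1.42 ± 0.071). Of the colony-stimulating factors and receptors, 10 of 14 were called higher and 4 lower: Csf2 (GM-CSF) was 2.4, 2.57 and 2.67 FPKM in Control and 18.8, 22.0 and 17.2 FPKM in ALI (log2 fold change 2.99 ± 0.14, edgeR adjusted p = 1.2e-06) and Csf1 rose by 2.05 ± 0.094. Csf2rb, the shared signalling chain for GM-CSF, rose (1.95 ± 0.11), and Kit fell (-1.41 ± 0.12). The lowest value on the list was -6.64, also the lowest on the alveolar macrophage list, which holds the GM-CSF receptor gene Csf2ra. Csf2ra was called and kept its call in every alternative. Its Control values were uneven, at 18.15, 8.51 and 6.83 FPKM in Control 1 to 3.

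All 10 tested genes of the CXCR2 axis were called, 9 of them higher. Cxcl2 was 0.25, 0.17 and 0.26 FPKM in Control and 119.7, 171 and 148 FPKM in ALI (log2 fold change 9.29 ± 0.21, edgeR adjusted p = 4.13e-08). Cxcl3 had 0.08, 0.09 and 0.04 FPKM in Control and 12.8, 9.66 and 12.99 FPKM in ALI (log2 fold change 7.43 ± 0.23, edgeR adjusted p = 1.62e-07). Both were under 1 FPKM in every Control library and far above it in every ALI library. Cxcr2 rose from 3.16 to 49.7 FPKM (4.05 ± 0.34), and Ackr1, an endothelial receptor that carries chemokines across venules, from 0.187 to 4.13 (4.48 ± 0.38). The member called lower was Ppbp, a platelet chemokine (-1.40 ± 0.21), although Pf4, the other platelet chemokine of the list and also expressed by macrophages, rose (2.36 ± 0.090).

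Among CC chemokines and receptors, 15 of 27 were called higher and 6 lower. Ccl3 was 0.37, 0.9 and 1.04 FPKM in Control and 176, 284 and 228 FPKM in ALI (log2 fold change 8.26 ± 0.32, edgeR adjusted p = 4.65e-07). Ccl20, which attracts CCR6-bearing cells, was 0.33, 0.06 and 0.22 FPKM in Control and 42.5, 40.0 and 48.1 FPKM in ALI (log2 fold change 7.74 ± 0.31, edgeR adjusted p = 5.99e-07). Ccl2 and Ccl7, ligands of the monocyte receptor CCR2, rose by 6.55 ± 0.25 and 6.24 ± 0.25, and Ccr1 and Ccr2 by 3.18 ± 0.11 and 1.43 ± 0.12. Ackr4, a scavenger of CCL19 and CCL21, fell from 2.94 to 0.177 FPKM (-3.95 ± 0.24). Ccl17 also fell (-3.49 ± 0.83), with a value of -2.88 without ALI 1 and -4.56 without ALI 2. Of the other chemokines and receptors, 12 of 17 were called higher and 1 lower, among them Cxcl10 (5.61 ± 0.37) and Cxcl17 (2.13 ± 0.34), and Cx3cl1, an endothelial membrane-bound chemokine, fell (-1.21 ± 0.090).

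**Figure D3:**
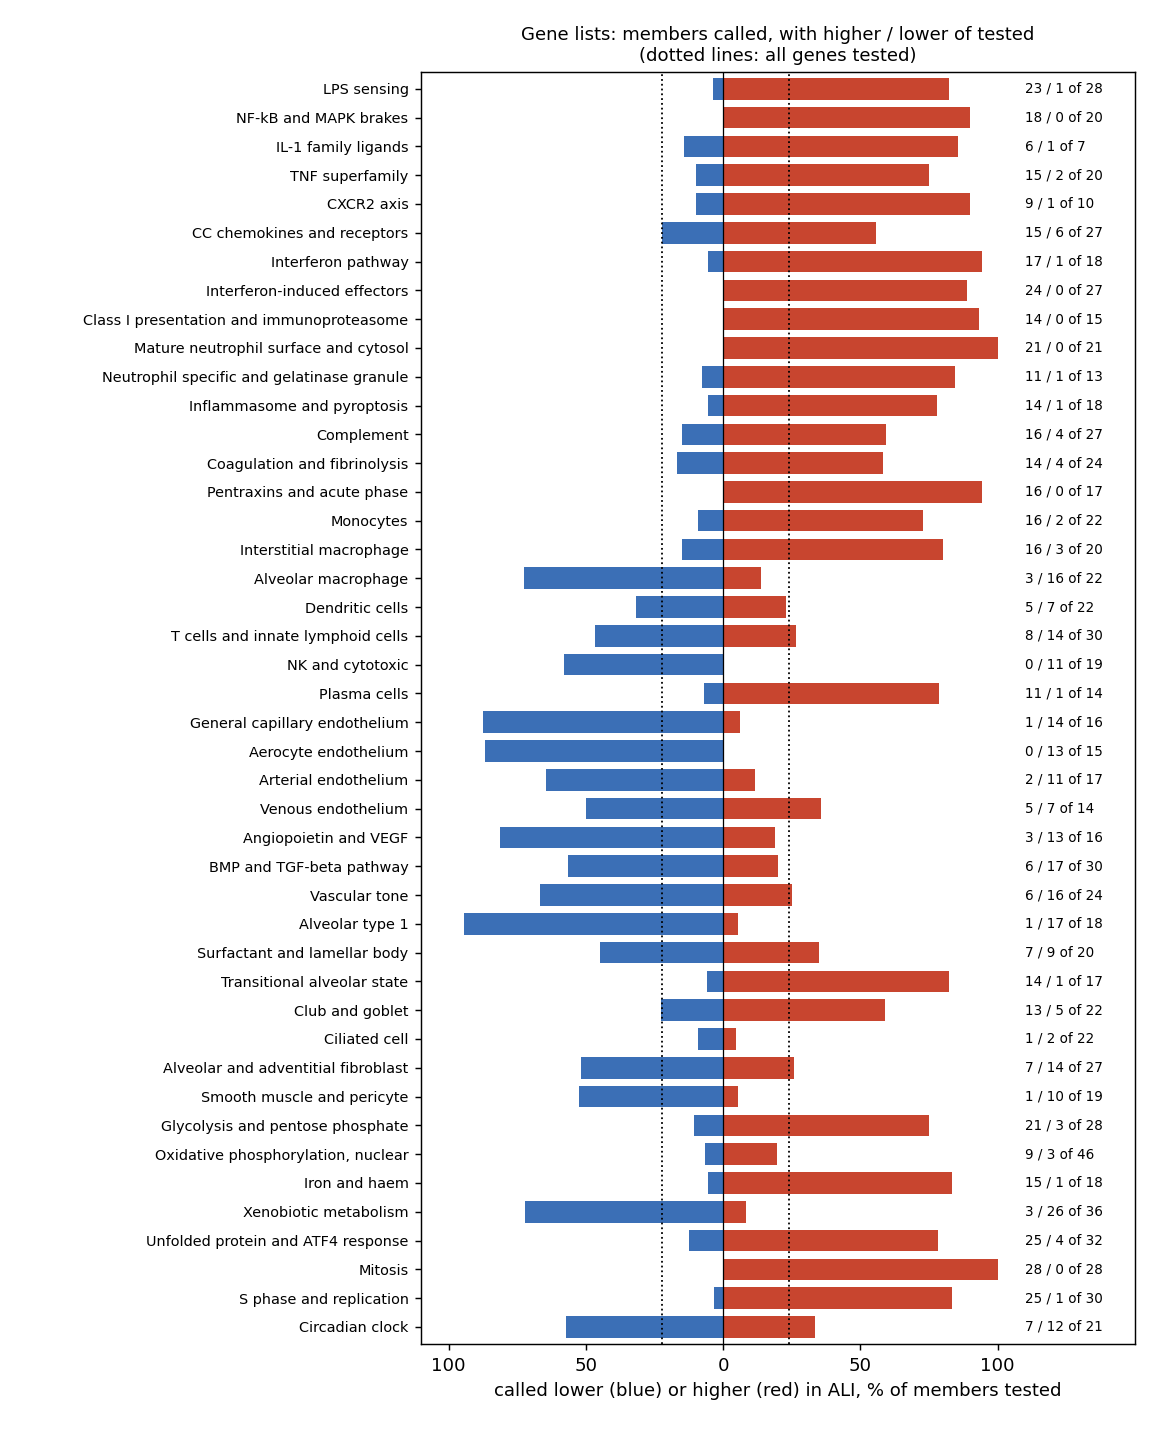
Percent of the tested members of each gene list that were called higher (red, right) or lower (blue, left) in ALI, with the counts higher / lower of tested at the right; the dotted lines mark all genes tested (24% higher, 22.1% lower). Mature neutrophil genes (21 of 21) and mitosis genes (28 of 28) fill the right side, and capillary lists lie on the left.

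Interferon genes were higher in ALI, with a subset far higher in ALI 2. Of 18 pathway genes 17 were called higher and 1 lower, and of 27 induced effectors 24 were called higher and none lower (median 1.83). The count of effectors was 24 without ALI 2 as well. Ifit1, which binds foreign RNA, was 5.87, 6.81 and 6.34 FPKM in Control and 24.0, 29.0 and 25.7 FPKM in ALI (log2 fold change 2.12 ± 0.095, edgeR adjusted p = 9.52e-07). Isg15, a ubiquitin-like modifier, was 7.91, 9.32 and 11.3 FPKM in Control and 45.6, 54.6 and 47.8 FPKM in ALI (log2 fold change 2.45 ± 0.14, edgeR adjusted p = 3.36e-06), and Rsad2 (viperin) 1.38, 1.42 and 0.97 FPKM in Control and 6.56, 7.72 and 7.79 FPKM in ALI. The 3 ALI libraries lay close together for these genes. Guanylate-binding proteins and immunity-related GTPases, which interferon gamma induces to attack vacuoles of microbes, did not. Gbp4 was 18.4, 20.3 and 24.7 FPKM in Control and 15.2, 121 and 15.8 FPKM in ALI, so the groups overlapped and it did not pass the test (adjusted p = 0.172 by edgeR); without ALI 2 its log2 fold change was -0.40. Gbp5 was 2.11, 2.24 and 2.11 FPKM in Control and 10.8, 32.8 and 11.0 FPKM in ALI (log2 fold change 3.15 ± 0.43, edgeR adjusted p = 0.000487), and 2.39 without ALI 2. Cxcl9, a chemokine induced by interferon gamma, was 0.17, 0.11 and 0.15 FPKM in Control and 8.1, 23.7 and 6.31 FPKM in ALI (log2 fold change 6.51 ± 0.61, edgeR adjusted p = 5.87e-05), and 5.67 without ALI 2. In ALI 2, 12 of the 27 effectors were over 1.5 times both other ALI libraries. Ifng transcripts were scarce, at 0.09, 0.21 and 0.18 FPKM in Control and 0.53, 1.06 and 0.32 FPKM in ALI; its call was lost without Control 1 (adjusted p = 0.0584) or ALI 2 (adjusted p = 0.0686, edgeR).

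Antigen presentation genes rose moderately. For MHC class I, 14 of 15 genes were called higher and none lower (median 0.86), led by Nlrc5, the class I transactivator (1.94 ± 0.28), Tap1, the peptide transporter (1.51 ± 0.17), and Psmb8, an immunoproteasome subunit (1.25 ± 0.098). For class II, 7 of 10 were called higher and none lower, including Ciita, its transactivator (1.09 ± 0.13), and Cd74, the invariant chain (0.62 ± 0.10). Constitutive proteasome subunits moved by less but together: 30 of 31 were called higher, with a median of 0.39 and a largest value of 0.82 for Psmd14.

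Transcripts of mature neutrophils rose in all 21 tested genes (median 3.61), and the summed FPKM of the list was 258.5 to 364.7 in Control and 4515 to 5028 in ALI. Clec4e (Mincle), a receptor for mycobacterial and dead-cell lipids, was 0.88, 0.61 and 0.44 FPKM in Control and 99.99, 118 and 107 FPKM in ALI (log2 fold change 7.44 ± 0.24, edgeR adjusted p = 2.09e-07). S100a8 was 36.9, 26.2 and 21.4 FPKM in Control and 951, 1018 and 874 FPKM in ALI (log2 fold change 5.14 ± 0.21, edgeR adjusted p = 6.03e-07). Control 1 was the highest Control library for S100a8, but it was far below all ALI libraries. Itgam (CD11b) rose by 3.77 ± 0.14 and Csf3r, the G-CSF receptor, by 3.10 ± 0.27. Of 13 specific and gelatinase granule genes 11 were called higher and 1 lower, for example Mmp8 (4.78 ± 0.22), Cd177 (5.17 ± 0.40) and Olfm4 (5.43 ± 0.21). The 6 azurophil genes, which are transcribed in marrow precursors, summed to 0.3 to 0.43 FPKM in Control and 0.33 to 0.51 in ALI. Only 2 of them, Prtn3 and Prss57, had enough counts to be tested, and neither was called. The part of neutrophil RNA in other lists that hold genes these cells express was not tested. Chil3, in both the granule and the alveolar macrophage list, fell (-1.93 ± 0.17), a call that was lost when all 12 libraries were fitted.

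Of 12 NADPH oxidase genes 8 were called higher and 2 lower. The phagocyte subunits Ncf4 (2.89 ± 0.074) and Ncf1 (2.32 ± 0.072) rose. Noxo1, the organiser of the epithelial NOX1 complex, was 1.3, 1.16 and 1.17 FPKM in Control and 15.7, 18.3 and 13.6 FPKM in ALI (log2 fold change 3.78 ± 0.13, edgeR adjusted p = 2.77e-07), whereas Nox4, a hydrogen peroxide-forming enzyme of fibroblasts, fell (-1.11 ± 0.14).

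Inflammasome and pyroptosis genes were called higher in 14 of 18 and lower in 1. Mefv (pyrin), a sensor of RhoA inactivation, was 0.55, 0.58 and 0.73 FPKM in Control and 20.6, 23.4 and 24.2 FPKM in ALI (log2 fold change 5.25 ± 0.12, edgeR adjusted p = 5.26e-08). Casp4 (caspase-11), the cytosolic LPS receptor of mice, rose from 3.94 to 16.0 FPKM (2.09 ± 0.11) and Zbp1, a nucleic acid sensor, by 2.65 ± 0.23. Ninj1, which ruptures the plasma membrane at the end of lytic death, rose by 2.23 ± 0.066, and Gsdmd, the pore former, by 0.38 ± 0.058. In the Bcl2 family 11 of 18 were called higher and 1 lower, led by Bid (2.25 ± 0.14) and Bcl2l11 (Bim, 1.71 ± 0.072), with the survival gene Mcl1 at 1.07 ± 0.056.

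Macrophage lists went in opposite directions. Of 22 alveolar macrophage genes 16 were called lower and 3 higher (median -1.81). Krt79 was 3.52, 3.92 and 2.19 FPKM in Control and 0.02, 0.05 and 0.02 FPKM in ALI (log2 fold change -6.52 ± 0.39, edgeR adjusted p = 4.59e-06), and Abcg1, a cholesterol exporter, 13.6, 13.7 and 12.0 FPKM in Control and 3.7, 2.72 and 4.23 FPKM in ALI (log2 fold change -1.81 ± 0.15, edgeR adjusted p = 2.47e-05). Pparg, the transcription factor required for these cells, fell from 3.84 to 1.05 FPKM (-1.80 ± 0.14). Marco and Itgax, also on the list, did not pass the test, although Marco passed in 8 of the alternatives and Itgax in 1. Of 20 interstitial macrophage genes 16 were called higher and 3 lower (median 1.98). Ms4a7 was 0.9, 0.52 and 0.73 FPKM in Control and 14.1, 16.4 and 15.2 FPKM in ALI (log2 fold change 4.47 ± 0.18, edgeR adjusted p = 6.36e-07). Adgre1 (F4/80) rose by 2.50 ± 0.079 and Cx3cr1 by 2.15 ± 0.14, while Lyve1, shared with lymphatic vessels, fell (-1.22 ± 0.16). Monocyte genes were called higher in 16 of 22 and lower in 2, among them Vcan (3.19 ± 0.23) and Treml4 (2.69 ± 0.15). Lipid-handling macrophage genes were mixed, 10 higher and 6 lower of 19, with 2 lower when all 12 libraries were fitted: Gpnmb (2.34 ± 0.075) and Trem2 (2.17 ± 0.087) rose, and Mmp12 (-1.35 ± 0.25) and Cd9 (-0.26 ± 0.064) fell, calls that were lost in that fit.

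Cytotoxic genes were lower or not called, and T cell genes were mixed. Of 19 NK and cytotoxic genes 11 were called lower and none higher (8 lower without Control 3 or without ALI 1). ALI 2 stood apart from the other ALI libraries on this list: 10 of the 19 genes were over 1.5 times both others, and the summed FPKM was 43.45, 72.99 and 43.58 in ALI 1 to 3 against 82.2, 104.5 and 130.9 in Control. Klrb1c (NK1.1) fell by 1.72 ± 0.27 on the log2 scale, Prf1 (perforin) by 1.61 ± 0.21 and Ncr1 (NKp46) by 1.22 ± 0.29. Gzma was 30.6, 39.7 and 51.0 FPKM in Control and 10.3, 22.0 and 7.76 FPKM in ALI (log2 fold change -1.53 ± 0.36, edgeR adjusted p = 0.00875), lowest in ALI 3 and highest of the ALI group in ALI 2. Of 30 T cell and innate lymphoid genes 14 were called lower and 8 higher; without Control 2 the count lower was 9. Cd8a (-1.08 ± 0.13) and Lef1, a transcription factor of naive cells (-1.46 ± 0.14), fell, whereas the activation receptors Ctla4 (2.36 ± 0.43) and Icos (1.53 ± 0.24) rose. Cd4 was not called (0.14 ± 0.17). Il17a was at 0 in every Control library and had 37, 66 and 21 counts in ALI, at least 45.0-fold higher against a floor of 3 counts over the Control group.

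B cell identity genes were mostly not called (13 of 18), for instance Ms4a1 (0.006 ± 0.19), but Fcer2a (CD23) was 7.16, 12.7 and 8.79 FPKM in Control and 33.8, 31.7 and 31.4 FPKM in ALI (log2 fold change 1.83 ± 0.18, edgeR adjusted p = 7.64e-05) and Cd72 rose by 1.81 ± 0.24. Immunoglobulin transcripts rose, most of all in ALI 3: Igkc was 103, 193 and 151 FPKM in Control and 670.2, 623 and 1562 FPKM in ALI (log2 fold change 2.74 ± 0.38, edgeR adjusted p = 0.000532; 2.19 without ALI 3). Jchain, the joining chain of IgA and IgM, was 5.42, 10.3 and 9.49 FPKM in Control and 55.0, 66.3 and 122 FPKM in ALI (log2 fold change 3.34 ± 0.35, edgeR adjusted p = 9.93e-05). Of 14 plasma cell genes 11 were called higher and 1 lower; the count higher was 10 without ALI 3, and 7 were over 1.5 times higher in ALI 3 than in both other ALI libraries. Prdm1, the plasma cell regulator, fell (-0.91 ± 0.093). Immunoglobulin genes are alike in sequence, so their separate values are uncertain.

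Dendritic cell genes had 5 higher and 7 lower of 22, a share called that was close to the 53.3% of protein-coding genes. Cd209a fell by 2.42 ± 0.41 and Ccr7, which guides migration to lymph nodes, by 1.02 ± 0.18 on the log2 scale. Fscn1, a marker of mature cells, rose by 1.31 ± 0.20. Among mast cell, basophil and eosinophil genes 7 of 18 were called lower and 1 higher, a share called that was close to the 46.1% over all genes tested. The count lower was 3 without Control 2 and 4 without ALI 2. Gata2, a regulator of these lineages that endothelium also expresses, fell (-1.09 ± 0.090), and Hdc, the histamine-forming enzyme that neutrophils also make, rose by 1.80 ± 0.087.

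Erythroid genes were called lower in 11 of 13 and higher in none (median -1.90; 10 lower without Control 1), and the summed FPKM was 7725 to 15169 in Control and 2673 to 3187 in ALI. Hbb-bs was 5479.6, 2712 and 3699.6 FPKM in Control and 1313, 1107 and 972 FPKM in ALI (log2 fold change -1.74 ± 0.24, edgeR adjusted p = 0.000487). Control 1 was highest, and all Control libraries exceeded all ALI libraries; Hbb-bs and Hbb-bt, and the Hba pair, are near-identical. Alas2, the erythroid haem synthesis enzyme, fell (-1.57 ± 0.17) and so did Ahsp, the alpha-haemoglobin chaperone (-2.90 ± 0.46). Platelet genes were called lower in 7 of 16, for example Tubb1 (-1.30 ± 0.24) and Clec1b (-1.04 ± 0.17), and higher in 3, which were Pf4 (2.36 ± 0.090), P2ry12 (2.03 ± 0.17) and Itgb3 (0.90 ± 0.10). The summed FPKM of all 16 was 36.83 to 42.17 in Control and 58.18 to 62.52 in ALI.

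Endothelial genes of the gas exchange capillaries were lower almost throughout. General capillary genes were called lower in 14 of 16 and higher in 1 (median -1.18), and aerocyte genes lower in 13 of 15 and higher in none (median -1.01). Plvap, the diaphragm protein of fenestrae and caveolae, was 236, 230.1 and 179 FPKM in Control and 31.8, 35.2 and 42.7 FPKM in ALI (log2 fold change -2.49 ± 0.14, edgeR adjusted p = 3.77e-06). Aplnr, the apelin receptor of general capillary cells, was 42.9, 35.3 and 36.9 FPKM in Control and 9.51, 6.71 and 9.42 FPKM in ALI (log2 fold change -2.09 ± 0.14, edgeR adjusted p = 8.08e-06). Ednrb, the endothelin receptor of aerocytes, was 23.04, 20.0 and 23.8 FPKM in Control and 4.92, 5.46 and 6.08 FPKM in ALI (log2 fold change -1.95 ± 0.098, edgeR adjusted p = 1.88e-06). No ALI library reached a Control library for these 3 genes. Clec14a fell by 1.92 ± 0.065 on the log2 scale, Car4 by 1.48 ± 0.084 and Kdr, the main VEGF receptor, by 1.26 ± 0.15. Cxcl12, the member called higher, went from 33.0 to 101 FPKM (1.68 ± 0.079).

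Arterial genes were called lower in 11 of 17 and higher in 2. Hey1, a Notch target, was 37.7, 37.5 and 34.3 FPKM in Control and 5.41, 3.48 and 5.99 FPKM in ALI (log2 fold change -2.81 ± 0.18, edgeR adjusted p = 5.97e-06). Dll4, the Notch ligand of arterial and tip cells, was 39.7, 36.5 and 31.9 FPKM in Control and 10.9, 6.67 and 13.1 FPKM in ALI (log2 fold change -1.75 ± 0.21, edgeR adjusted p = 0.000253), and Efnb2 fell by 1.96 ± 0.14 on the log2 scale. Sox17 and Jag1 were not called (0.007 ± 0.066 and 0.048 ± 0.10). Venous genes were mixed, with 5 higher and 7 lower of 14, and lymphatic genes had 2 higher and 4 lower of 10, with the lymphatic regulator Prox1 not called (0.063 ± 0.26).

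**Figure D4:**
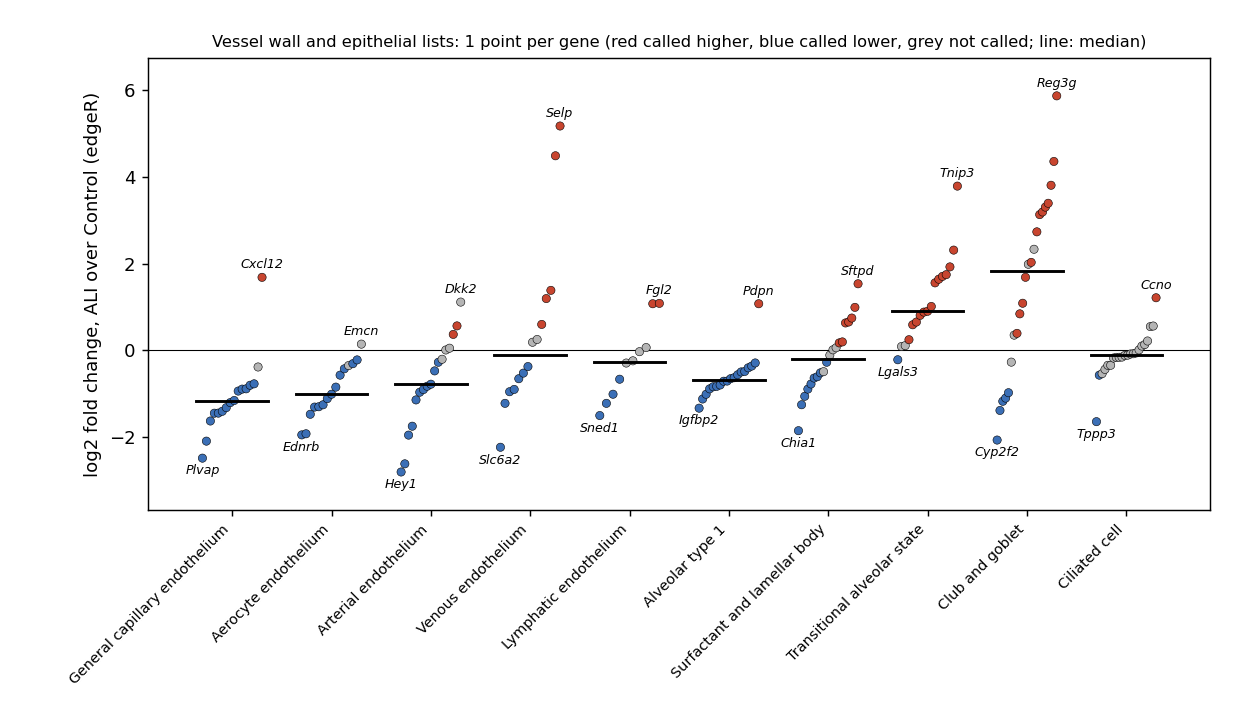
Log2 fold change of ALI over Control for each tested member of 5 vessel and 5 epithelial lists (1 point per gene; red called higher, blue called lower, grey not called; the line is the list's median). The 2 capillary lists and the type 1 list lie almost wholly below 0 (medians -1.18, -1.01 and -0.68), ciliated genes lie near 0, and transitional and club and goblet genes lie mostly above it.

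Adhesion molecules that catch leukocytes rose while junctional molecules fell. Selp (P-selectin), which starts leukocyte rolling, was 0.51, 0.78 and 0.55 FPKM in Control and 18.6, 16.5 and 28.8 FPKM in ALI (log2 fold change 5.17 ± 0.26, edgeR adjusted p = 1.72e-06). Sele (E-selectin) was 0.1, 0.07 and 0.13 FPKM in Control and 3.66, 4.55 and 6.28 FPKM in ALI (log2 fold change 5.63 ± 0.30, edgeR adjusted p = 2.56e-06). Both had low values in every Control library. Icam1 rose from 82.1 to 186 FPKM (1.25 ± 0.059) and Vcam1 by 1.19 ± 0.088. Cdh5 (VE-cadherin, -0.69 ± 0.12), Pecam1 (-0.44 ± 0.066) and Esam (-0.54 ± 0.060) fell. The list had 8 higher and 7 lower of 15; the count higher was 4 without Control 2, 4 without ALI 3, and 5 without Control 1 or ALI 2, as well as 5 with upper-quartile scaling.

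Angiopoietin and VEGF genes were called lower in 13 of 16 and higher in 3 (median -1.01). Esm1 (endocan), a tip cell product, was 19.2, 12.4 and 8.1 FPKM in Control and 0.99, 0.62 and 1.89 FPKM in ALI (log2 fold change -3.43 ± 0.44, edgeR adjusted p = 0.000328). Angpt2, which destabilises vessels, fell with its receptor's other ligand Angpt1 (-1.31 ± 0.080 and -0.83 ± 0.13), and Ptprb (VE-PTP), a phosphatase of the angiopoietin receptor, fell by 1.32 ± 0.078 on the log2 scale. Pgf, placental growth factor, went the other way at 0.75, 1.3 and 0.94 FPKM in Control and 7.42, 5.88 and 8.53 FPKM in ALI (log2 fold change 2.93 ± 0.22, edgeR adjusted p = 1.46e-05). Of 30 BMP and TGF-beta genes 17 were called lower and 6 higher. Smad6, an inhibitory target of BMP signalling, was 50.6, 52.4 and 57.0 FPKM in Control and 13.6, 9.39 and 14.6 FPKM in ALI (log2 fold change -2.02 ± 0.15, edgeR adjusted p = 1.3e-05). Eng (endoglin, -1.65 ± 0.090), Acvrl1 (ALK1, -1.12 ± 0.081) and Bmpr2 (-0.51 ± 0.063), receptors mutated in heritable vascular disease, fell. Inhba, the activin A subunit, was 0.15, 0.11 and 0.17 FPKM in Control and 2.3, 2.65 and 3.0 FPKM in ALI (log2 fold change 4.27 ± 0.20, edgeR adjusted p = 1.15e-06), and its binding protein Fst rose by 3.20 ± 0.15. Id1, a BMP target, was not called (-0.19 ± 0.078).

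Genes of vascular tone were lower in 16 of 24 and higher in 6. Npr3, the natriuretic peptide clearance receptor, was 8.99, 7.23 and 6.42 FPKM in Control and 1.01, 1.75 and 1.06 FPKM in ALI (log2 fold change -2.50 ± 0.23, edgeR adjusted p = 4.95e-05). Gucy1a1, a subunit of the nitric oxide receptor (-0.91 ± 0.083), and Edn1, endothelin-1 (-0.92 ± 0.099), fell, while Nos3, the endothelial nitric oxide synthase, rose (0.63 ± 0.081). Adm, adrenomedullin, was 2.39, 2.77 and 2.1 FPKM in Control and 17.1, 15.9 and 18.6 FPKM in ALI (log2 fold change 2.90 ± 0.12, edgeR adjusted p = 7.98e-07), while its receptor parts Calcrl (-0.87 ± 0.059) and Ramp2 (-1.33 ± 0.099) fell. The inducible bradykinin receptor Bdkrb1 rose from 0.813 to 5.62 FPKM (2.84 ± 0.28).

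Coagulation genes were called higher in 14 of 24 and lower in 4. F10 was 2.18, 2.15 and 2.15 FPKM in Control and 31.2, 34.9 and 30.9 FPKM in ALI, with no overlap. F3, tissue factor, rose by 0.77 ± 0.066, and F7, its partner, fell (-1.53 ± 0.10). Of 27 complement genes 16 were called higher and 4 lower. C3 was 107, 103 and 76.7 FPKM in Control and 421, 381 and 475 FPKM in ALI (log2 fold change 2.23 ± 0.14, edgeR adjusted p = 6.29e-06), Cfb 15.2, 15.1 and 14.04 FPKM in Control and 389, 334 and 386 FPKM in ALI, and the anaphylatoxin receptors C3ar1 (3.63 ± 0.15) and C5ar1 (2.75 ± 0.16) rose. Hc, complement C5, fell from 77.8 to 30.2 FPKM (-1.29 ± 0.11).

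Acute phase genes were called higher in 16 of 17 and lower in none (median 3.68, also with Saa2, at 0 in Control, set to its lower bound). Orm2 was 0.16, 0.08 and 0.27 FPKM in Control and 23.03, 20.4 and 30.0 FPKM in ALI (log2 fold change 7.17 ± 0.31, edgeR adjusted p = 8.47e-07). Cp, ceruloplasmin, rose by 2.98 ± 0.086. Hpx, haemopexin, on the list of liver genes, rose by 3.05 ± 0.29, while the hepatocyte gene Alb averaged 0.0867 FPKM in ALI. Orm, Saa and Serpina3 genes each have close copies, so their split is uncertain.

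Type 1 cell genes were called lower in 17 of 18 and higher in 1 (median -0.68). Ager was 947, 974 and 919 FPKM in Control and 674, 686 and 554 FPKM in ALI (log2 fold change -0.50 ± 0.091, edgeR adjusted p = 0.00234). Igfbp2 fell by 1.33 ± 0.17 on the log2 scale and Cav1, caveolin-1, by 1.12 ± 0.085. Surfactant and lamellar body genes were split, 7 higher and 9 lower of 20. Sftpb, required for surfactant films, was 1131, 1052 and 1041 FPKM in Control and 602, 642 and 547 FPKM in ALI (log2 fold change -0.78 ± 0.080, edgeR adjusted p = 9.93e-05). Sftpa1, a collectin that binds microbes, was 951, 889 and 878 FPKM in Control and 1520.5, 1591 and 1221 FPKM in ALI (log2 fold change 0.74 ± 0.11, edgeR adjusted p = 0.000609). Sftpb and Sftpa1 thus went in opposite directions without overlap. The lipid transporter Abca3 and the phosphate transporter Slc34a2 were not called (0.011 ± 0.061 and 0.058 ± 0.085), and Chia1, an acidic chitinase, fell (-1.85 ± 0.17).

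Genes of the transitional alveolar state, a cell state between type 2 and type 1, were called higher in 14 of 17 and lower in 1 (median 0.90). Krt8, its keratin, was 71.0, 74.8 and 80.6 FPKM in Control and 117, 99.3 and 108 FPKM in ALI (log2 fold change 0.59 ± 0.072, edgeR adjusted p = 0.000272), Sfn rose by 1.70 ± 0.18 and Gdf15 by 1.74 ± 0.23. Krt7 and Krt19 were not called. Lung lineage transcription factors were called lower in 14 of 24 and higher in 2. Tcf21 of fibroblasts fell by 1.57 ± 0.17 on the log2 scale and Etv5 of type 2 cells by 0.90 ± 0.086, while Elf3 rose (1.61 ± 0.12) and Foxa2 was not called.

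Club and goblet genes went in both directions, 13 higher, 5 lower and 4 not called of 22. Cyp2f2 was 648, 726 and 912 FPKM in Control and 190.4, 180.1 and 148 FPKM in ALI (log2 fold change -2.07 ± 0.14, edgeR adjusted p = 9.32e-06) and Cbr2 1709, 1793 and 2171 FPKM in Control and 739, 752 and 573 FPKM in ALI (log2 fold change -1.39 ± 0.13, edgeR adjusted p = 5.35e-05). Pigr, which carries IgA across epithelium, was 7.61, 10.1 and 13.3 FPKM in Control and 211, 190.0 and 201 FPKM in ALI (log2 fold change 4.35 ± 0.19, edgeR adjusted p = 8.38e-07). Every library kept to its group in these 3 genes. The mucin Muc5b was 0.24, 0.26 and 1.66 FPKM in Control and 5.04, 2.74 and 13.8 FPKM in ALI (log2 fold change 3.39 ± 0.85, edgeR adjusted p = 0.0116); the value was 4.89 without Control 3 and 2.50 without ALI 3. Reg3g, an antibacterial lectin, was 0.05, 0.13 and 3.15 FPKM in Control and 29.6, 25.5 and 132 FPKM in ALI (log2 fold change 5.86 ± 1.20, edgeR adjusted p = 0.00423), 9.28 without Control 3 and 4.68 without ALI 3. Scgb3a1 had 27.7, 18.6 and 266 FPKM in Control and 305, 380.3 and 803 FPKM in ALI. It did not pass the test (adjusted p = 0.0709 by edgeR), although it passed in 5 of the alternatives. Control 3 and ALI 3 thus stood high for airway genes: 11 of 22 members were over 1.5 times both other Control libraries in Control 3 and 9 over both other ALI libraries in ALI 3. The count higher was 16 without Control 3 and 12 without ALI 3. Ciliated cell genes showed little: 19 of 22 were not called, 1 was higher and 2 lower, of which Tppp3 was 148, 169 and 178 FPKM in Control and 55.3, 43.4 and 52.0 FPKM in ALI (log2 fold change -1.65 ± 0.10, edgeR adjusted p = 5.42e-06).

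**Figure D5:**
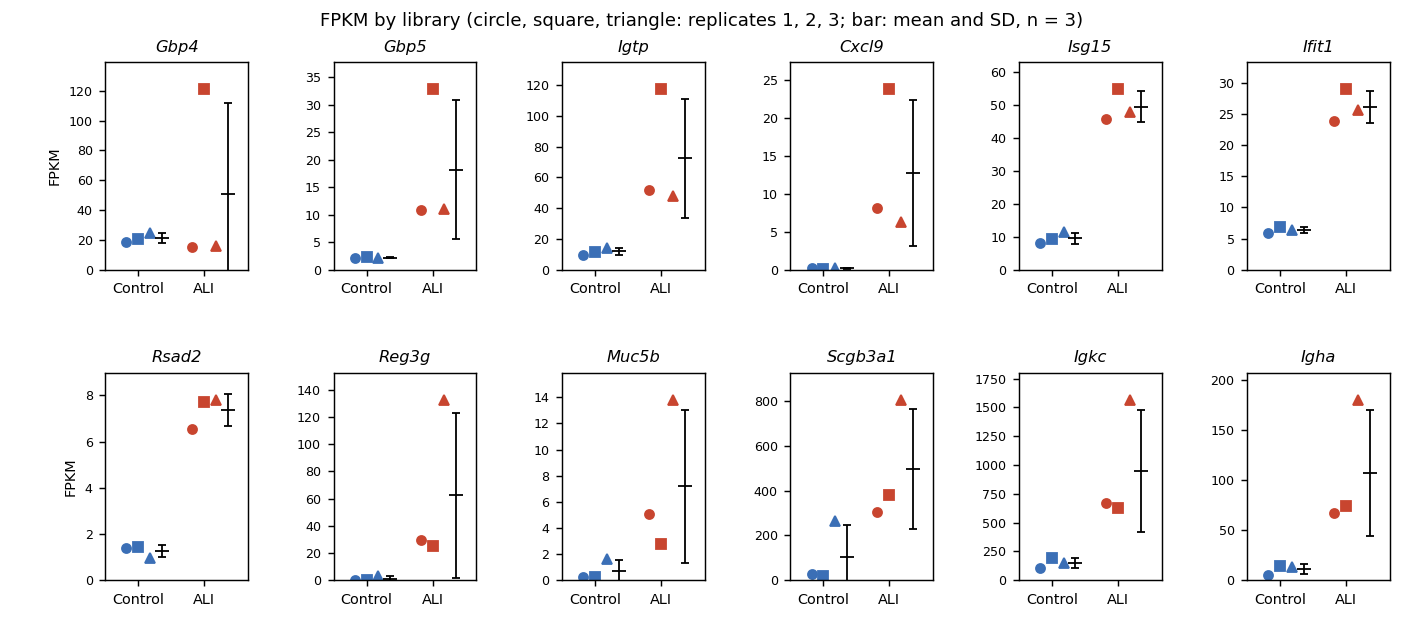
FPKM in each library (circle, square and triangle for replicates 1, 2 and 3) for 12 genes, with the mean and SD of 3 libraries as bars (lower ends cut at 0). ALI 2 (square) stands above the other ALI libraries for Gbp4, Gbp5, Igtp and Cxcl9 but not clearly for Isg15, Ifit1 or Rsad2, and ALI 3 (triangle) stands above them for Reg3g, Muc5b, Scgb3a1, Igkc and Igha.

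Ion and water transport genes were changed in both directions, 12 higher and 8 lower of 27. Slc26a4 (pendrin, ENSMUSG00000020651, chr12:31519827-31559969 on the - strand), an anion exchanger of airway epithelium, was 0.91, 1.13 and 0.73 FPKM in Control and 44.1, 46.2 and 42.6 FPKM in ALI (log2 fold change 5.65 ± 0.15, edgeR adjusted p = 7.04e-08). It was under 2 FPKM in every Control library and above 30 in every ALI library. The water channel Aqp3 rose from 0.35 to 4.48 FPKM (3.71 ± 0.43; 4.38 without Control 3), while the endothelial Aqp1 (-0.64 ± 0.072) and the alveolar Aqp5 (-0.29 ± 0.064) fell. The epithelial sodium channel subunits Scnn1a (0.18 ± 0.073), Scnn1b (-0.18 ± 0.073) and Scnn1g (0.10 ± 0.054) were not called, with adjusted p-values of 0.07, 0.0809 and 0.15 by edgeR. Adrb1, a beta-adrenergic receptor, fell (-1.59 ± 0.078). Junction genes were called lower in 15 of 30 and higher in 7. Cldn5, the endothelial claudin, was 224, 243 and 246 FPKM in Control and 137, 122 and 128 FPKM in ALI (log2 fold change -0.81 ± 0.064, edgeR adjusted p = 2.21e-05), Cldn18, the alveolar one, fell by 0.49 ± 0.077 on the log2 scale, and Cldn2, which forms leaky pores, rose from 0.113 to 1.79 FPKM (3.98 ± 0.48).

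Fibroblast genes of the alveolar wall and the adventitia, taken as 1 list, were called lower in 14 of 27 and higher in 7. Inmt was 1462, 1437 and 1378 FPKM in Control and 189, 319 and 157 FPKM in ALI (log2 fold change -2.61 ± 0.24, edgeR adjusted p = 5.59e-05). Fgfr4 was 28.5, 26.9 and 22.9 FPKM in Control and 4.56, 7.06 and 3.44 FPKM in ALI (log2 fold change -2.31 ± 0.24, edgeR adjusted p = 0.000101). Npnt, a ligand of integrin alpha-8, fell by 1.12 ± 0.16 and Aspn by 1.38 ± 0.11 on the log2 scale, whereas Pi16, a gene of adventitial fibroblasts, rose (1.12 ± 0.15) and Pdgfra was not called (0.15 ± 0.10). Smooth muscle and pericyte genes were called lower in 10 of 19 (6 without ALI 1) and higher in 1, and Acta2 was not called (0.41 ± 0.17).

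Collagen genes were called lower in 14 of 25 and higher in 8, by chain. Col3a1, a fibrillar collagen, was 46.6, 36.1 and 45.7 FPKM in Control and 105, 98.5 and 134 FPKM in ALI (log2 fold change 1.47 ± 0.14, edgeR adjusted p = 5.73e-05), and Col15a1 rose by 1.84 ± 0.18. The ubiquitous basement membrane chains Col4a1 (0.78 ± 0.13) and Col4a2 (0.57 ± 0.11) rose. The chains of the mature alveolar and kidney basement membranes, Col4a3 (-0.71 ± 0.087), Col4a4 (-0.89 ± 0.12) and Col4a5 (-1.38 ± 0.11), fell. Of 26 proteases and inhibitors 17 were called higher and 5 lower: Mmp3 was 3.54, 4.18 and 4.71 FPKM in Control and 60.0, 53.3 and 83.8 FPKM in ALI (log2 fold change 4.06 ± 0.19, edgeR adjusted p = 1.11e-06) and Adamts4, an aggrecanase that cleaves versican, 0.1, 0.06 and 0.07 FPKM in Control and 5.93, 3.92 and 7.58 FPKM in ALI (log2 fold change 6.32 ± 0.32, edgeR adjusted p = 1.78e-06). Wfdc17 rose by 5.51 ± 0.14 and Slpi, an elastase inhibitor, by 3.02 ± 0.13. Hyaluronan matrix genes were called higher in 13 of 22 and lower in 7, among the latter Hapln3, of the hyaluronan link proteins (-1.46 ± 0.21), and Hyal1, a hyaluronidase (-0.85 ± 0.13). Has2 and Has1, hyaluronan synthases, rose by 3.76 ± 0.28 and 2.60 ± 0.39, Tnfaip6 (TSG-6), which crosslinks hyaluronan, by 3.42 ± 0.33, and the receptor Cd44 from 19.3 to 57.4 FPKM (1.64 ± 0.089). Lox, which crosslinks collagen, was 10.3, 9.22 and 7.03 FPKM in Control and 67.6, 77.7 and 75.6 FPKM in ALI (log2 fold change 3.13 ± 0.14, edgeR adjusted p = 1.15e-06).

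Wnt pathway genes were called lower in 18 of 30 and higher in 4. Wif1, a secreted inhibitor, was 5.79, 5.25 and 7.83 FPKM in Control and 0.89, 1.13 and 0.86 FPKM in ALI (log2 fold change -2.64 ± 0.19, edgeR adjusted p = 1.36e-05). The ligand Wnt2 (-1.06 ± 0.16), the receptor Fzd7 (-0.999 ± 0.095) and the target Axin2 (-0.40 ± 0.099) fell, and Sfrp1, another secreted inhibitor, rose (1.08 ± 0.22). The EGF family had 6 higher and 2 lower of 17, a share called that was close to the 46.1% over all genes tested. Ereg (epiregulin) was 0.12, 0.07 and 0.06 FPKM in Control and 1.96, 2.29 and 3.15 FPKM in ALI (log2 fold change 4.99 ± 0.31, edgeR adjusted p = 5.84e-06). Hbegf (1.01 ± 0.066) and the sheddase Adam17 (1.25 ± 0.054) rose.

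Eicosanoid enzymes were called higher in 9 of 20 and lower in 4, and their receptors higher in 6 of 12 and lower in 3. Hpgd (ENSMUSG00000031613, chr8:56294585-56321043 on the + strand), which inactivates prostaglandins, was 316, 385 and 373 FPKM in Control and 42.2, 59.3 and 39.1 FPKM in ALI (log2 fold change -2.86 ± 0.17, edgeR adjusted p = 4.04e-06). Ptges, the inducible prostaglandin E synthase, was 5.11, 5.97 and 5.54 FPKM in Control and 34.4, 26.6 and 36.4 FPKM in ALI (log2 fold change 2.62 ± 0.12, edgeR adjusted p = 1.09e-06). The groups did not overlap for either. The cyclooxygenases Ptgs2 (COX-2) and Ptgs1 (COX-1) rose by 2.10 ± 0.15 and 1.07 ± 0.066, Alox5ap, needed for leukotrienes, by 2.05 ± 0.10 and Pla2g7, which degrades platelet-activating factor, by 3.41 ± 0.079. Ltc4s, leukotriene C4 synthase, and Ptgis, prostacyclin synthase, fell (-2.25 ± 0.20 and -0.82 ± 0.11). With Hpgd included, the summed FPKM of the enzymes was 448.4 to 524.3 in Control and 342.8 to 359 in ALI. Among receptors, Ltb4r1 (2.66 ± 0.30) and Ptger4 (1.65 ± 0.14) rose, and Ptgfr (-2.05 ± 0.18) and Tbxa2r (-1.80 ± 0.23) fell.

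Immune metabolite enzymes were called higher in 10 of 17 and lower in 1. Il4i1, an amino acid oxidase of antigen-presenting cells, was 0.07, 0.09 and 0.11 FPKM in Control and 23.1, 14.7 and 17.8 FPKM in ALI (log2 fold change 7.56 ± 0.22, edgeR adjusted p = 1.23e-07). Arg2 was 7.67, 6.98 and 7.06 FPKM in Control and 64.2, 75.2 and 62.3 FPKM in ALI (log2 fold change 3.29 ± 0.096, edgeR adjusted p = 1.28e-07), and Ch25h, which makes 25-hydroxycholesterol, rose by 3.19 ± 0.13 and Nos2 by 3.17 ± 0.13. Antioxidant genes were called higher in 16 of 24 and lower in 4. Slc7a11, the cystine importer, was 0.13, 0.13 and 0.12 FPKM in Control and 8.94, 11.8 and 8.82 FPKM in ALI (log2 fold change 6.34 ± 0.16, edgeR adjusted p = 5.65e-08). Sod2, the mitochondrial superoxide dismutase, was 8.69, 8.72 and 9.75 FPKM in Control and 47.2, 50.4 and 45.7 FPKM in ALI (log2 fold change 2.47 ± 0.072, edgeR adjusted p = 1.28e-07), whereas Cat (-0.77 ± 0.060) and the extracellular Sod3 (-0.98 ± 0.092) fell and Nqo1 was not called (-0.42 ± 0.23). Slc7a10, an alanine and serine carrier, fell from 43.0 to 7.27 FPKM (-2.49 ± 0.16).

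Iron genes were called higher in 15 of 18 and lower in 1. Steap4, a metalloreductase, was 9.35, 7.73 and 7.63 FPKM in Control and 201, 205 and 203 FPKM in ALI (log2 fold change 4.69 ± 0.099, edgeR adjusted p = 3.58e-08), and Slc11a1, the phagosomal metal exporter NRAMP1, 2.14, 2.29 and 2.09 FPKM in Control and 32.2, 35.2 and 38.4 FPKM in ALI (log2 fold change 4.08 ± 0.088, edgeR adjusted p = 3.58e-08). Hmox1, which degrades haem, rose by 2.68 ± 0.24. Of 14 metallothionein and zinc transport genes 8 were called higher and none lower, led after Mt2 by Slc39a14, the importer ZIP14, at 1.89, 1.84 and 1.78 FPKM in Control and 18.6, 15.9 and 19.9 FPKM in ALI (log2 fold change 3.37 ± 0.090, edgeR adjusted p = 7.63e-08).

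HIF pathway genes were split, 4 higher and 4 lower of 12. Hif1a was 16.5, 15.1 and 16.4 FPKM in Control and 55.3, 49.6 and 63.8 FPKM in ALI (log2 fold change 1.89 ± 0.093, edgeR adjusted p = 1.68e-06). Epas1 (HIF-2-alpha), rich in endothelium and type 2 cells, was 288, 270.4 and 211 FPKM in Control and 108, 132 and 124 FPKM in ALI (log2 fold change -1.01 ± 0.13, edgeR adjusted p = 0.000343). The prolyl hydroxylase Egln3, itself a HIF target, rose by 2.37 ± 0.29. Among hypoxia targets 16 of 23 were called higher and 5 lower; the count lower was 2 without Control 2, 3 without Control 1 or ALI 1, and 3 with no filter on low counts or all 12 libraries. The increases were led by the lactate exporter Slc16a3 (3.23 ± 0.10), Lox and Adm; Pdk1 was not called (-0.031 ± 0.082). Glycolysis and pentose phosphate genes were called higher in 21 of 28 and lower in 3 (median 1.06). Slc2a6, a glucose transporter of macrophages, was 1.1, 0.86 and 0.63 FPKM in Control and 11.8, 12.0 and 14.1 FPKM in ALI (log2 fold change 3.94 ± 0.19, edgeR adjusted p = 1.66e-06). Hk3 (2.24 ± 0.060), Hk2 (1.80 ± 0.15), Pkm (1.299 ± 0.10) and G6pdx (1.11 ± 0.074) rose. Nuclear oxidative phosphorylation genes were mostly not called (34 of 46). Of 15 mitochondrially encoded genes 8 were called lower and none higher (5 lower without ALI 1 and 4 by limma on log2(FPKM + 0.1) or log2(FPKM + 1)), and mt-Nd2 fell by 0.64 ± 0.064 on the log2 scale.

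Detoxification genes were called lower in 26 of 36 and higher in 3 (median -0.84). Gstm1, a glutathione transferase, was 235, 262 and 259 FPKM in Control and 69.5, 74.4 and 67.0 FPKM in ALI (log2 fold change -1.77 ± 0.070, edgeR adjusted p = 5.46e-07), Ephx1, an epoxide hydrolase, 70.0, 77.3 and 81.8 FPKM in Control and 19.96, 19.5 and 18.7 FPKM in ALI (log2 fold change -1.91 ± 0.069, edgeR adjusted p = 3.45e-07) and Fmo2, the lung's main flavin monooxygenase, 221, 199 and 195 FPKM in Control and 76.4, 105 and 70.5 FPKM in ALI (log2 fold change -1.22 ± 0.15, edgeR adjusted p = 0.000242). No ALI library reached a Control library for these. Cyp1b1 went up at 1.05, 1.12 and 1.28 FPKM in Control and 21.4, 18.98 and 24.4 FPKM in ALI (log2 fold change 4.30 ± 0.12, edgeR adjusted p = 7.56e-08), as did Cyp7b1, an oxysterol hydroxylase (3.66 ± 0.15). Ahr fell (-0.63 ± 0.074). Lipid metabolism genes had 9 higher and 11 lower of 32; Dgat2, which makes triglycerides, rose (2.24 ± 0.11), and 10 of 20 cholesterol synthesis genes were called higher and 1 lower, the largest being Mvd (1.21 ± 0.13).

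Of the cell cycle lists, mitosis and S phase genes were higher and counts of clustered histones lower. All 28 mitosis genes were called higher (median 1.53) and 25 of 30 S phase genes were, with 1 lower (median 0.82). Genes of the clustered histone list, most of whose transcripts lack a poly(A) tail, were called lower in 8 of 13 and higher in none (median -0.82). H1f2 had -0.64 ± 0.11. The list and its counts also hold H1f0 (-0.82 ± 0.10), which lies outside the clusters and is not of that kind. The count lower was 4 without Control 1 and 5 without ALI 1, without ALI 3 or with a replicate block. In Control 1, 5 of the 13 were over 1.5 times both other Control libraries. The RNA was selected with oligo(dT), so counts of transcripts without a poly(A) tail may not follow their level. The part of this in the lower histone counts was not tested. Ccnb1, cyclin B1, was 0.54, 0.71 and 0.73 FPKM in Control and 2.34, 4.18 and 3.05 FPKM in ALI (log2 fold change 2.33 ± 0.23, edgeR adjusted p = 8.27e-05). Top2a was 1.55, 1.79 and 2.13 FPKM in Control and 5.75, 8.56 and 6.75 FPKM in ALI (log2 fold change 2.02 ± 0.17, edgeR adjusted p = 2.83e-05). The ALI values lay above every Control library but remained below 10 FPKM in both genes. Rrm2, which makes deoxynucleotides, rose by 1.84 ± 0.12, whereas Ccnd1, cyclin D1, was not called (0.042 ± 0.066). Unfolded protein and ATF4 genes were called higher in 25 of 32 and lower in 4, for example Sdf2l1 (1.57 ± 0.13), Manf (1.13 ± 0.073) and Mthfd2 (1.70 ± 0.13). Heat shock genes were called higher in 13 of 18 and lower in 3: Hspa1b was 2.2, 1.98 and 2.46 FPKM in Control and 18.96, 29.4 and 21.2 FPKM in ALI (log2 fold change 3.46 ± 0.18, edgeR adjusted p = 2.17e-06; Hspa1a is a near copy) and Hspa8 rose by 1.05 ± 0.078. Lysosome genes were called higher in 23 of 32 and lower in 1, for example Ctsb (1.73 ± 0.057) and Ctsc (1.56 ± 0.072).

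Clock genes were lower in 12 of 21 and higher in 7. Nr1d1 (REV-ERB-alpha), a repressor of Bmal1, was 62.1, 61.0 and 52.7 FPKM in Control and 8.3, 10.6 and 7.47 FPKM in ALI (log2 fold change -2.67 ± 0.14, edgeR adjusted p = 2.18e-06). Per3 fell by 2.05 ± 0.15 and Tef by 1.76 ± 0.11 on the log2 scale, while Bmal1 rose from 0.753 to 2.42 FPKM (1.75 ± 0.12), and Nfil3, which competes with Dbp for its sites, was 1.19, 1.32 and 1.73 FPKM in Control and 12.3, 9.86 and 14.7 FPKM in ALI (log2 fold change 3.19 ± 0.19, edgeR adjusted p = 4.2e-06). The clock hour of harvest is not stated by the labels, and its part in these values was not tested. Glucocorticoid-responsive genes were mixed, 6 higher and 7 lower of 18 (4 lower without Control 1 or ALI 1): Fkbp5 rose (2.29 ± 0.090) and Tsc22d3 (GILZ) fell (-0.85 ± 0.072). Of 24 immediate early genes 16 were called higher and 1 lower, among them Nr4a3 (4.18 ± 0.23) and Fosl2 (1.96 ± 0.090), while Jun was not called (0.012 ± 0.090).

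Markers of other tissues were mixed. Skeletal muscle genes were called lower in 3 of 6. Thymus and lymph node genes were higher in 1 and lower in 3 of 6, and liver genes higher in 3 and lower in 2 of 7. Mesothelial genes were called higher in 2 and lower in 5 of 13 (3 without Control 1, Control 2, ALI 1 or ALI 2). Their share called was close to the 53.3% of protein-coding genes. Basal and squamous epithelial genes were called higher in 4 of 6, with Krt14 and Krt15 not called. That list holds Il36g, described above as also made by macrophages. Il36g made up most of the list's summed FPKM in ALI (101.3, 136.5 and 106.9). Cardiac muscle genes summed to 13.78 to 42.42 FPKM in Control and 15.95 to 22.68 in ALI, with 10 of 11 genes highest in Control 3 by over 1.5 times, and 10 of 11 were not called. Adipose genes summed to 24.64 to 45.87 and 21.09 to 30.11 FPKM, with 8 of 9 not called; Cidec, also on the alveolar macrophage list, was the exception (-3.10 ± 0.41; -3.79 without ALI 3). Xist was between 43.76 and 54.65 FPKM and the Y-linked Uty was listed at 0 in all 6 libraries.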

How the data were processed

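RNA selected with oligo(dT) from lung was sequenced as paired reads with a dUTP library kit that marks strand, per the labels' protocols. The authors deposited 1 table of read counts per gene and FPKM for 12 libraries. Tools listed without a role in the submitters' processing notes include StringTie 1.3.4d, HISAT2 2.0.4 and cutadapt 1.9, and the build listed is GRCm38; the strand setting and the treatment of reads that map to several genes were not found in any header or label (not given in the sources used here), so overlapping, antisense and near-identical genes may share reads. The deposited counts, which are whole numbers and not normalized, were the basis of the tests reported. The deposited FPKM values are the levels printed.

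The 6 libraries were fitted alone, without covariates, in R 4.3.3 with edgeR 4.0.16 (filterByExpr, TMM scaling, quasi-likelihood F-test, Benjamini-Hochberg adjustment, threshold 0.05). The procedure was also run on simulated counts in which a small share of genes changed, about evenly up and down. That run does not check the scaling or the error rate with as many changes as here. Alternatives were DESeq2 1.42.0, its size factors, upper-quartile scaling, other count filters, limma 3.58.1 (voom, and log2(FPKM + 0.1) or log2(FPKM + 1)), all 12 libraries, a replicate block and leaving out each library. The comparison and the gene lists were chosen with earlier results of these data known. Lists are described by counts and medians, with no test. Their counts are to be read against the 24% called higher and 22.1% called lower of all genes tested. Protein-coding genes, which make up most of the lists, were called more often (4365 higher and 4039 lower of 15760, 53.3% in all). Of the list symbols, 9 could not be matched and were not analysed here, and a few genes are not reported here.

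Genes were named by a rule: called, at least 4-fold changed, at least 5 FPKM in 1 group and without overlap, the 12 increases and 12 decreases with the smallest p; the 10 largest gains and losses in share of FPKM rescaled to a fixed sum; per list, its core members, up to 4 other called members with the largest change and up to 2 not called with the highest level; and the 5 most variable genes per group. Ifit1, Tlr5, Tnfsf10, Hc, Lifr, Adrb1, Aqp1, Eng, Calcrl, Chil3, F7, Cat, Sod3, Gstm1, Ephx1, Itgam, Col4a2, Slpi, Prdm1, Hapln3, Hyal1 and Il17a, and the genes of the closing observations, were named after their values were seen. Gene positions are GRCm38 (GENCODE), matched by Ensembl identifier; promoter windows are RefSeq's. Motif intervals are 95% Wilson intervals and cover counting error only.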

Additional observations from a re-analysis of the deposited data

How the results depend on the processing

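The count of genes called was 9960 (8289 without Control 2 to 10474 with DESeq2 over all alternatives), and 8289 to 9872 when 1 library was left out. Limma on log2(FPKM + 1) gave fewer genes called and at least 2-fold changed, 1563 (1000 higher and 563 lower) against 3651 (2092 and 1559), since adding 1 compresses the changes of low genes. It called 4458 genes higher and 5747 lower. The groups share replicate numbers in the labels, which do not say what the numbers mark, so the samples were not treated as paired. Over all genes tested, same-numbered libraries did not deviate together (correlations -0.07, -0.01 and 0.05 for numbers 1 to 3). Only number 3 correlated best with its own number. Some lists did deviate together in number 3. Of 22 club and goblet genes, 11 in Control 3 and 9 in ALI 3 were over 1.5 times both other libraries of the group. Of 9 adipose genes, 5 were in each. With a replicate block 8880 genes were called (4662 higher, 4218 lower), 3455 of them at least 2-fold. Of 909 genes selected for naming and tested, 684 were called; 627 of these kept the call and direction under every alternative run, 57 lost the call in at least 1, and none reversed direction while called. Of the genes not called, 97 passed in at least 1 alternative. Of the genes not called, 2 passed in the opposite direction when 1 library was left out. Gbp4 had a log2 fold change of 1.34 (-0.40 without ALI 2 to 1.77 without ALI 1), and Myl4 one of -0.35 (-0.72 without Control 2 to 0.69 without Control 3). Of 106 list counts of 5 or more, 13 moved by over 1.5 times in at least 1 alternative. With 3 libraries a group, a gene near the threshold can gain or lose its call with 1 library.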

Other observations

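Transcription factor families, as the deposited table names them, were changed unevenly. Of 1237 factors tested, 254 (20.5%) were called higher and 331 (26.8%) lower, against 24% and 22.1% of all genes. Of 51 bZIP factors, the class of AP-1, ATF and C/EBP, 28 were called higher and 6 lower. Cebpb, a factor of acute phase genes, was 52.4, 57.3 and 56.0 FPKM in Control and 183.9, 188.1 and 188.2 FPKM in ALI (log2 fold change 1.83 ± 0.057, edgeR adjusted p = 1.63e-07), and Batf, which pairs with JUN proteins in lymphocytes and myeloid cells, had a log2 fold change of 2.57 ± 0.15. Of 24 ETS factors 14 were higher and 6 lower: Spi1 (PU.1), of myeloid cells, rose by 1.86 ± 0.099, while Erg, of endothelium, was 27.1, 27.8 and 25.2 FPKM in Control and 11.2, 10.2 and 11.7 FPKM in ALI (log2 fold change -1.20 ± 0.071, edgeR adjusted p = 4.41e-06). Of 75 homeobox factors 7 were higher and 27 lower, and of 12 T-box and 8 estrogen receptor-like factors none was higher and 5 of each were lower. Zinc finger factors of the C2H2 class, the largest, had 61 higher and 147 lower of 523. Sox18, an endothelial factor, fell by 1.19 ± 0.11 on the log2 scale.

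Some genes were detected in only 1 group. At 0 in the 3 Control libraries and with at least 10 counts in each ALI library were 61 genes, 30 of them protein-coding; the reverse held for 34, of which 16 were coding. Fgf23, a bone hormone that lowers phosphate, had 94, 70 and 122 counts in ALI, at least 103.9-fold higher against a floor of 3 counts over the Control group. Mmp10, stromelysin-2, had 112, 149 and 106 counts (at least 133.3-fold higher). Retnlb, an epithelial relative of resistin, had 25, 19 and 20 counts (at least 23.3-fold higher). Il36a had 24, 56 and 14 counts (at least 34.2-fold higher). In the other direction, Wfdc16, a protease inhibitor-like gene, had 88, 59 and 63 counts in Control and 0 in ALI, at least 64.2-fold lower. Crabp1, a retinoic acid carrier, had 21, 40 and 47 counts in Control (at least 33.0-fold lower), and Ndp, norrin, which activates Wnt signalling in vessels, had 12, 26 and 21 (at least 18.1-fold lower).

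Serpina3h, of a cluster of near-identical genes and listed under 2 identifiers, was the most variable abundant gene in both groups: under ENSMUSG00000041449 it was listed at 0, 16.7 and 0 FPKM in Control and 99.5, 122.6 and 0 FPKM in ALI, and was not called.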
